A study of Mus musculus and Homo sapiens with 14 samples.

Results

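The genes described here encode the lysosome's machinery: the subunits of the vacuolar proton pump, the cathepsins, other acid hydrolases, lysosomal membrane and lipid transport proteins, the lysozymes, and the transcription factors Tfeb and Tfe3. They were taken by symbol: every row beginning with Atp6v or Atp6ap, in either letter case, plus a list of 36 named genes. No threshold on a measured value enters the rule, but it was set with earlier results of these data known. This gave 61 of the 20682 rows in each mouse table and 59 of the 19166 rows in the human table. In mouse, 25 of the 61 belong to the proton pump, 9 are cathepsins, 13 are other hydrolases, 10 are membrane and transport proteins, 2 are lysozymes and 2 are regulators.

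Messenger RNA of acute myeloid leukemia cells was sequenced in 14 libraries, in 7 groups of 2, after polyA selection. RN2c is a mouse leukemia with an MLL-AF9 fusion, mutant Nras and Cas9. Its libraries were taken on day 2 after lentiviral infection with guide RNAs against Sik3 (guides e1 and e3), against Mef2c (guides #1 and #2) or against Rosa26, a locus used as a control for cutting. RN2, the same leukemia with titles that carry the word empty, received 350 nM YKL-05-099 or 0.1% DMSO for 2 hours. MOLM-13, a human line with an MLL-AF9 fusion, here with an empty vector, received 250 nM YKL-05-099 or 0.1% DMSO for 2 hours. YKL-05-099 inhibits the salt-inducible kinases, of which SIK3 is a member, and MEF2C is a transcription factor known to depend on SIK3 signaling in such leukemias. A knockout group is therefore a mixed, recently infected population with a different guide in each library, and the labels do not say whether other groups hold separate cultures. The p-values therefore reflect the spread between the 2 libraries of a group. In a knockout group that spread includes any difference between guides, and in the other groups it may be technical only.

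Lysosomes digest proteins, lipids and sugars at acid pH. The proton pump has a cytosolic V1 sector that splits ATP and a membrane V0 sector that carries protons inward, and the acid it makes activates the cathepsins and the other hydrolases. Myeloid cells build lysosomes and related granules as they mature, with lysozyme, cathepsin S, cathepsin L and CD68 prominent in the macrophage lineage. TFEB and TFE3 bind the CLEAR element, whose core is TCACGTGA, in the promoters of many lysosomal genes.

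RefSeq promoters (build GRCm38.p6, 250 bases before to 50 after a start) were found for 49 of the 61 mouse genes. The core TCACGTGA, which is its own reverse complement, stood in the promoters of 7 of them, Atp6v0d1, Atp6v0e, Atp6v1a, Ctsa, Ctsd, Gla and Mcoln1, against 1.125% of all 27025 genes with such a window. Its inner CACGTG, which every TCACGTGA contains, stood in 13 of the 49, against 8.093% of all genes. The MEF2 motif stood in 1 of the 49, Mcoln1, against 3.704% of all genes. A match describes the letters of the window and is not a bound site. The promoters below are printed because they hold the core and their genes took different courses below. Atp6v0e rose after Sik3 guides, Ctsa fell after either knockout, Gla was called lower with Mef2c guides, and Ctsd was not called. Each sequence is on the gene's strand and ends 30 bases after the start, and capitals mark CACGTG, or TCACGTGA where it is whole. They lie at chr17:26676146-26676425 on the plus strand for Atp6v0e, chr2:164833523-164833802 on the plus strand for Ctsa, chrX:134600976-134601255 on the minus strand for Gla and chr7:142387798-142388077 on the minus strand for Ctsd.
Atp6v0e: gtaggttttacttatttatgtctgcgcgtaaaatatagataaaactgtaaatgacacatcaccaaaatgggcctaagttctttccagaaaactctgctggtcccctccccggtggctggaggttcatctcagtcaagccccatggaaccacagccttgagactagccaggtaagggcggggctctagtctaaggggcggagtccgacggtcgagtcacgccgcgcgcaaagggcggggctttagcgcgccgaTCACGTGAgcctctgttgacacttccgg
Ctsa: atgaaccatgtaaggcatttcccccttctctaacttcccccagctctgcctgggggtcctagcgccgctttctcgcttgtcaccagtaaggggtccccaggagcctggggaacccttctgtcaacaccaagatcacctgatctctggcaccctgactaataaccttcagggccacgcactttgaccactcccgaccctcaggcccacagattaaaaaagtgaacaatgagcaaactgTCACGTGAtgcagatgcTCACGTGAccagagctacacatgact
Gla: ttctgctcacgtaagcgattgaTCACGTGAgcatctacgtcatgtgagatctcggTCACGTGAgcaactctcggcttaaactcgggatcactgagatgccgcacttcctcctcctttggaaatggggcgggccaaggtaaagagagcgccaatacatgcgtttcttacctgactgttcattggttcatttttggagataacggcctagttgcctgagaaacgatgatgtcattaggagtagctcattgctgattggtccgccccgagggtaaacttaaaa
Ctsd: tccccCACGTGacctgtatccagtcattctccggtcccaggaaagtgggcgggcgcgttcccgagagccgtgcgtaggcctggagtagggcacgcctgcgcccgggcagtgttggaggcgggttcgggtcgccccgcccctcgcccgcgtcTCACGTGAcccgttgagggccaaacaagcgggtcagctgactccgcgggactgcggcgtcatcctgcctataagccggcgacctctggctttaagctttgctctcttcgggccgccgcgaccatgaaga
In Atp6v0e the core begins at base 3 of the transcript. Ctsa holds the core on both sides of its start, Gla holds it at 2 places far upstream, and Ctsd holds it 99 bases upstream.

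Library totals in recovered reads were 19065348 to 24275290 in RN2c, 13961461 to 14943682 in RN2, and 16859820 to 22609627 in MOLM-13. Values below are DESeq2-normalized reads as deposited unless another unit is named, and each table was normalized by itself. Sik3 had 1219 and 1169 normalized reads in sgSik3 libraries, against 1939 and 1878 in sgRosa26 libraries. Mef2c had 3892 and 4022 in sgMef2c libraries, against 8395 and 8369 in sgRosa26 libraries. Both targets were lower in their own knockout (log2 fold changes -0.68 ± 0.05 and -1.08 ± 0.04, SE), and a guide's cut need not remove the transcript. All 11 genes of a myeloid leukemia list were measured in every table. Of 10 lymphoid markers, 5 were at 0 in all libraries of the sgSik3 table, as were 5 of 11 erythroid, megakaryocyte and mast cell markers, and those that were measured are given with the myeloid lists. The sgRosa26 libraries are the same reads in both RN2c tables, so the knockouts share their controls.

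In RPM (reads scaled to a common library total) per kilobase of exon, the lysosomal genes spanned a wide range in sgRosa26 cells. Lyz2, the main lysozyme of mouse myeloid cells, stood highest at 1670.0, followed by the aspartic protease gene Ctsd at 406, Lamp1 at 304, Ctsz at 282 and Cd63 at 266. Among pump subunits the highest were Atp6v0b at 175, Atp6v0c at 172 and Atp6v1e1 at 162. These are means of 2 libraries, and the order of neighbours was not tested. The pump genes listed at 0 or below a mean of 10 normalized reads in the RN2c tables were subunit forms with narrow tissue use, such as Atp6v0a4, Atp6v1g3, Atp6v1b1 and Atp6v0d2. After these were set aside, 53 of the 61 genes were tested in each RN2c comparison.

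**Figure D1:**
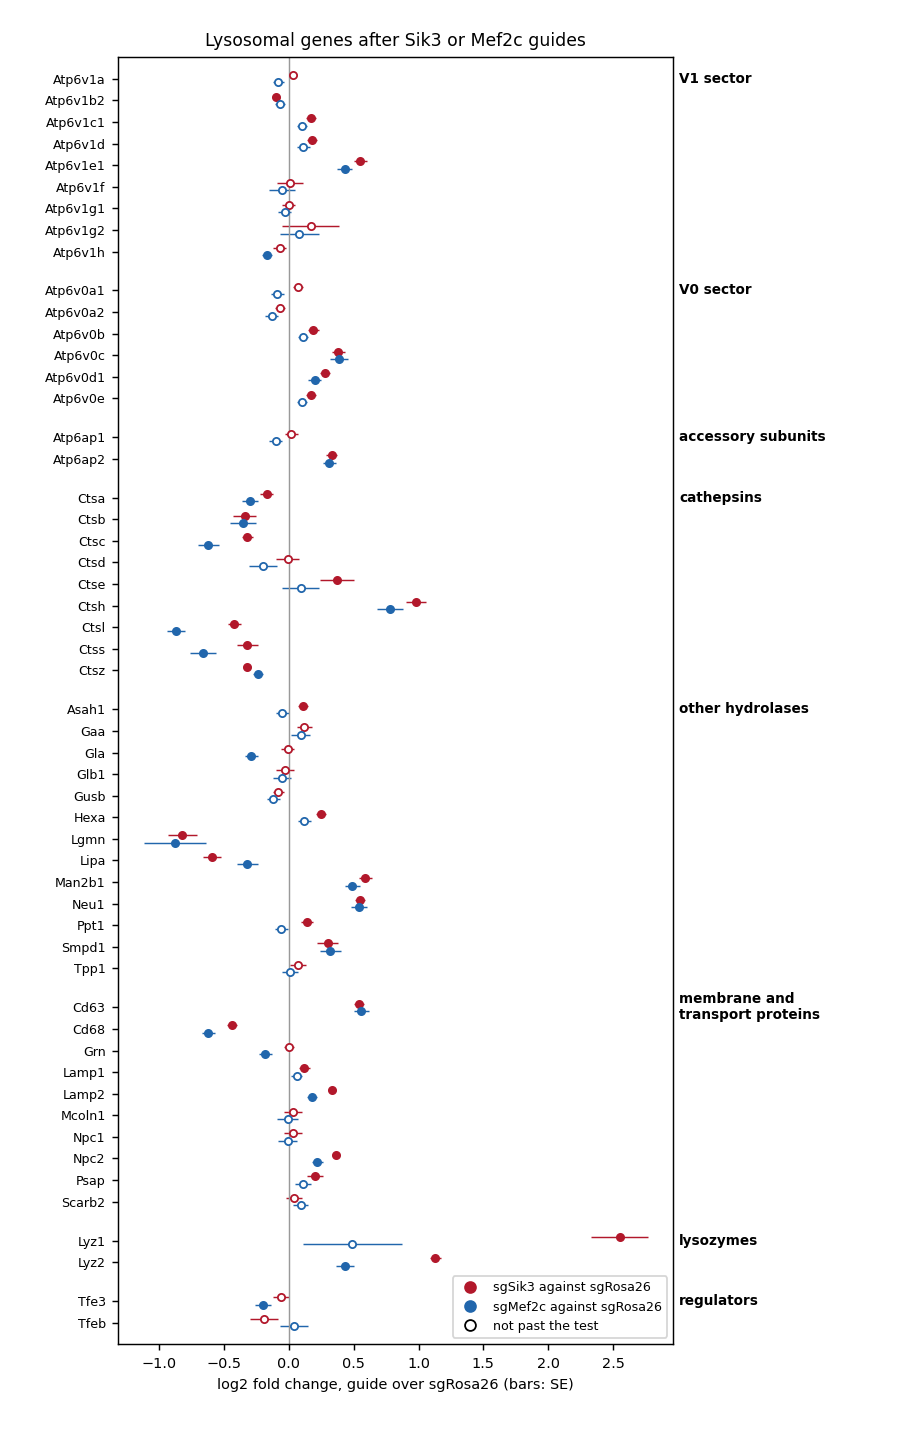
Log2 fold change of each measured lysosomal gene in sgSik3 (red) and sgMef2c (blue) over sgRosa26, with standard errors as bars, grouped by role; filled points passed the test. Lyz1, Lyz2 and Ctsh stand furthest right after Sik3 guides, while 6 filled cathepsin points lie left of 0 in each comparison.

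After Sik3 guides, 23 of the 53 measured genes were higher than in sgRosa26 cells, 10 were lower and 20 were not called. Over all 10934 genes tested, 47.8% were called, 23.9% higher and 23.9% lower, so the share called higher among these genes, and not the share called lower, stood above the background. The median log2 fold change of the 53 was 0.07, with a median of 0.00 over all genes. Groups did not overlap in 24 genes on the higher side and 13 on the lower side, against 37.4% and 37.8% of all genes. Without guide e1 the counts of calls were 15 higher and 7 lower, and without guide e3 they were 18 and 6.

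The proton pump supplied 8 of those higher calls among its 17 measured genes, with 1 lower and a median log2 fold change of 0.17. The largest change in the V1 sector was in Atp6v1e1, a stalk subunit. It had 6592 and 6307 normalized reads in sgSik3 libraries, against 4602 and 4216 in sgRosa26 libraries. The groups did not overlap, and the log2 fold change was 0.55 ± 0.05 (adjusted p = 1.8e-05). Other V1 genes rose by less, Atp6v1d, of the central rotor, by 0.18 ± 0.04, and Atp6v1c1, of the peripheral stalk, by 0.17 ± 0.04 on the log2 scale. Atp6v1b2, the nucleotide-binding B subunit, was lower by a small margin (-0.10 ± 0.03, adjusted p = 0.029). Atp6v1a, the catalytic subunit, had 9071 and 8853 normalized reads in sgSik3 libraries, against 8930 and 8595 in sgRosa26 libraries, and was not called.

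Of 6 measured V0 genes, 4 rose and none fell. Atp6v0c, which encodes the proteolipid of the proton-carrying ring, had 5909 and 5784 normalized reads in sgSik3 libraries, against 4295 and 4711 in sgRosa26 libraries (log2 fold change 0.38 ± 0.05, adjusted p = 0.00015). Atp6v0d1, which joins the ring to the central stalk, had 3362 and 3269.5 in sgSik3 libraries, against 2645 and 2802 in sgRosa26 libraries, a log2 fold change of 0.28 ± 0.04. Atp6v0b and Atp6v0e followed at 0.19 ± 0.04 and 0.17 ± 0.04. The accessory gene Atp6ap2, also known as the prorenin receptor, had 6510.3 and 6208 normalized reads in sgSik3 libraries, against 4999.7 and 5133 in sgRosa26 libraries (log2 fold change 0.33 ± 0.04, adjusted p = 9.7e-05). Its partner Atp6ap1 stood at 0.02 ± 0.05 and was not called. Some small calls missed the threshold with 1 guide left out, at log2 fold changes close to those of the full fit. Without guide e1, Atp6v1d stood at 0.17 (adjusted p = 0.060), Atp6v0e at 0.14 (0.070) and Atp6v1b2 at -0.09 (0.16). Without guide e3, Atp6v1c1 stood at 0.16 (adjusted p = 0.051) and Atp6v1b2 at -0.11 (0.10). Of Atp6v0c's 50-base exon stretches, 10.8% recur in other annotated genes, mainly its pseudogenes, so its level is less certain.

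The cathepsins of the rule went mostly the other way. Of 9 measured, 6 were lower, 2 were higher and the median log2 fold change was -0.32. Cathepsin symbols outside the rule did not fall: Ctso (0.33 ± 0.11) and Ctsg (0.12 ± 0.03) were called higher, and Ctsw (0.52 ± 0.38) was not called. Ctsz, a carboxypeptidase, had 6775 and 6756 normalized reads in sgSik3 libraries, against 8496 and 8431 in sgRosa26 libraries (log2 fold change -0.32 ± 0.03, adjusted p = 3.8e-05). Ctsl, an endopeptidase of many lysosomes, had 953 and 910.4 in sgSik3 libraries, against 1224 and 1269 in sgRosa26 libraries (-0.42 ± 0.05, adjusted p = 0.00017). Ctsc, the dipeptidyl peptidase that activates granule serine proteases, had 2278 and 2307 in sgSik3 libraries, against 2973 and 2761 in sgRosa26 libraries (-0.32 ± 0.04, adjusted p = 0.00033). In each of these the highest sgSik3 library lay below the lowest sgRosa26 library. Ctss, cathepsin S of antigen-presenting cells, was lower by the same log2 value with a wider error (-0.32 ± 0.08, adjusted p = 0.0074, and 0.072 without guide e3).

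Ctsh ran against the other cysteine cathepsins of the rule. This aminopeptidase had 1952 and 1905 normalized reads in sgSik3 libraries, against 1068 and 890.5 in sgRosa26 libraries, and the log2 fold change was 0.98 ± 0.08 (adjusted p = 1.3e-05). Ctse, a rare aspartic cathepsin here, had 200.4 and 206 in sgSik3 libraries, against 140.2 and 176.5 in sgRosa26 libraries (0.37 ± 0.13, adjusted p = 0.045). That call was lost without either sgSik3 guide (adjusted p 0.14 and 0.19) and without sgRosa26 replicate 1, where the value was 0.20 with adjusted p = 0.23.

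The values of Ctsd, Ctsb and Ctsa moved with the sgRosa26 library they were set against. Ctsd had 17931 and 17424 normalized reads in sgSik3 libraries, against 15628 and 20269 in sgRosa26 libraries, so the knockout lay between its controls and was not called (-0.01 ± 0.09). Without sgRosa26 replicate 1 the log2 fold change was -0.20 (adjusted p = 2e-06), and without replicate 2 it was 0.18 (adjusted p = 1.5e-05). Ctsb, an abundant cysteine protease, had 10707 and 10644 in sgSik3 libraries, against 12023 and 15269.8 in sgRosa26 libraries (-0.34 ± 0.09, adjusted p = 0.010). Its value was -0.52 without sgRosa26 replicate 1 and -0.17 without replicate 2. Without guide e1 it stood at -0.35 (adjusted p = 0.058) and without guide e3 at -0.34 (0.062). Ctsa, the protective protein of neuraminidase, fell by 0.17 ± 0.05 on the log2 scale. Its value was -0.26 without sgRosa26 replicate 1 and -0.09 without replicate 2. It stood at -0.17 (adjusted p = 0.11) without guide e1 and at -0.18 (0.088) without guide e3. The kit does not mark strand, and exons of Ctsa and Ctsb overlap genes on the opposite strand over 22.3% and 16.3% of their length. Exons of Ctsl overlap other genes over 28.2% of their length, with 1 gene on each strand. Of the 50-base stretches of Ctsd, 32.4% recur in another annotated gene, which overlaps 31.5% of its exon length on the same strand.

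Among 13 other hydrolases, 6 rose and 2 fell after Sik3 guides. Man2b1, a lysosomal mannosidase, had 13998 and 13473 normalized reads in sgSik3 libraries, against 8629.7 and 9599.5 in sgRosa26 libraries (log2 fold change 0.59 ± 0.05, adjusted p = 1.7e-05). Neu1, the sialidase that works in a complex with cathepsin A, had 3905 and 3957 in sgSik3 libraries, against 2576 and 2807 in sgRosa26 libraries (0.55 ± 0.04, adjusted p = 1.7e-05). Hexa, the alpha subunit of hexosaminidase, rose by 0.25 ± 0.04 and Smpd1, acid sphingomyelinase, by 0.30 ± 0.08 on the log2 scale. Lipa, the acid lipase that frees cholesterol from its esters, had 1488 and 1367 in sgSik3 libraries, against 2008 and 2304 in sgRosa26 libraries (-0.59 ± 0.07, adjusted p = 0.00012). Lgmn, the asparaginyl protease that processes cathepsins, had 156 and 151 in sgSik3 libraries, against 287 and 257 in sgRosa26 libraries (-0.82 ± 0.11, adjusted p = 0.00025). In all 4 of the genes given by library the groups did not overlap. Ppt1 and Asah1, which act on lipid-linked substrates, rose by 0.14 ± 0.05 and 0.11 ± 0.04. Each of these small calls was lost in 3 of the 4 fits that left out a library, with Ppt1 at 0.08 without sgRosa26 replicate 1 and Asah1 at 0.06 without replicate 2, and Smpd1 lost its call without guide e1 or e3 (adjusted p 0.074 and 0.058).

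Of 10 membrane and transport genes, 5 rose and 1 fell. Cd63, a tetraspanin of lysosomes and azurophil granules, had 11883 and 11407 normalized reads in sgSik3 libraries, against 7722 and 8310.0 in sgRosa26 libraries (log2 fold change 0.54 ± 0.04, adjusted p = 1.2e-05). Npc2 and Lamp2, a cholesterol carrier and a major membrane glycoprotein, rose by 0.36 ± 0.03 and 0.33 ± 0.03 on the log2 scale. Lamp1, the other major glycoprotein, had 15746 and 14835 in sgSik3 libraries, against 13676 and 14494 in sgRosa26 libraries (0.12 ± 0.04, adjusted p = 0.040), a call lost at 0.08 without guide e1 (adjusted p = 0.29), at 0.08 without sgRosa26 replicate 1 (0.074) and at 0.05 with quantile normalization (0.24). Psap, the saposin precursor, rose by 0.20 ± 0.06, with 0.11 without sgRosa26 replicate 1 and adjusted p = 0.11 without guide e1. Cd68, a macrophage sialomucin, had 1684 and 1724 in sgSik3 libraries, against 2282 and 2358 in sgRosa26 libraries (-0.44 ± 0.04, adjusted p = 3.1e-05). Npc1, Mcoln1, Grn and Scarb2 were not called, with log2 fold changes of at most 0.04 in size.

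Both lysozymes rose. Lyz2 had 102068 and 98293 normalized reads in sgSik3 libraries, against 46996 and 44295 in sgRosa26 libraries (log2 fold change 1.13 ± 0.04, adjusted p = 2.5e-07). Lyz1, the neighbouring copy on chromosome 10 that is best known from intestinal Paneth cells, was scarce, with 103 and 88.4 in sgSik3 libraries, against 15.1 and 16.0 in sgRosa26 libraries (2.55 ± 0.22, adjusted p = 2.0e-05). The copies share 16.1% of the 50-base stretches of Lyz1, so reads of the abundant Lyz2 could stand among those of Lyz1, and the values of Lyz1 are less certain. Neither regulator was called: Tfe3 stood at -0.06 ± 0.06 and Tfeb at -0.19 ± 0.11. Without sgRosa26 replicate 2, in a fit with a lone control library, Tfeb stood at -0.30.

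**Figure D2:**
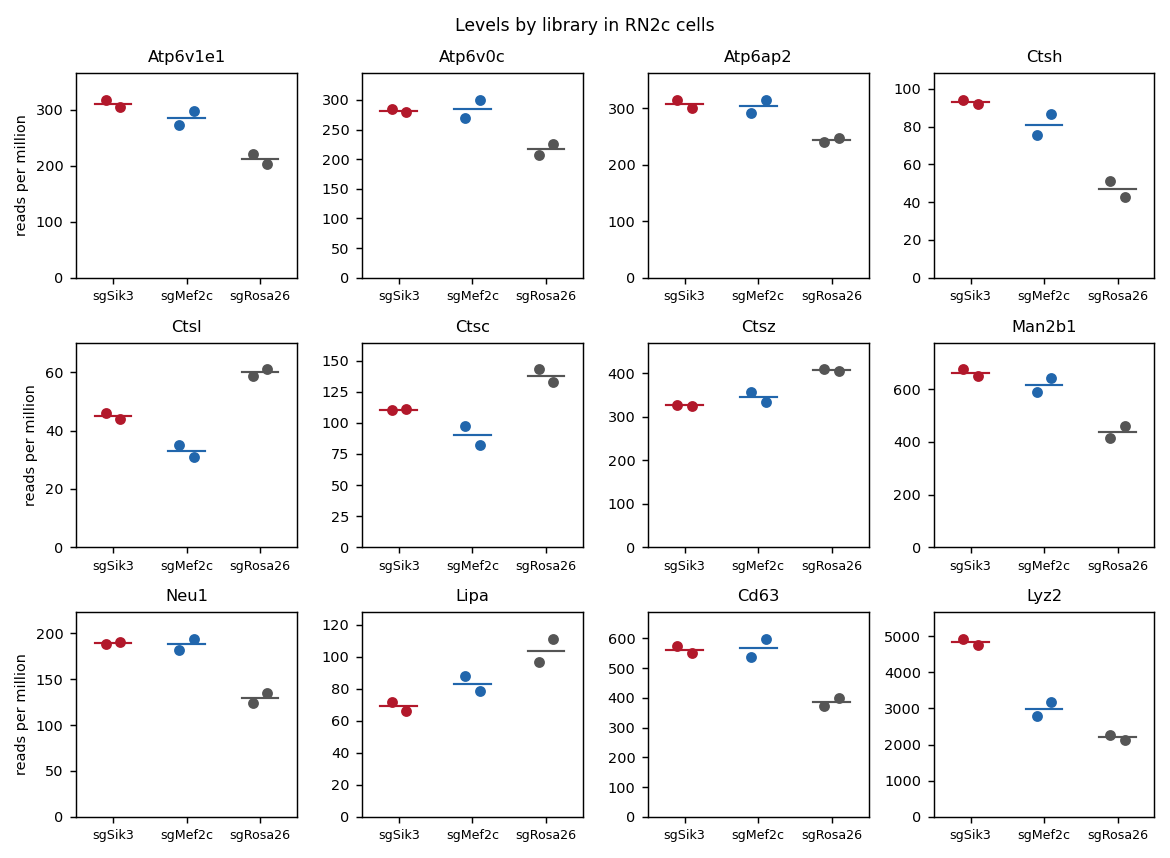
RPM, scaled with TMM, of 12 lysosomal genes in each RN2c library, with a bar at the mean of the 2 libraries of a group and axes that start at 0. In the panels of Ctsl and Ctsc the sgMef2c points lie below the sgSik3 points, and in the Lyz2 panel the sgSik3 points stand highest.

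After Mef2c guides, 12 of the 53 measured genes were higher than in sgRosa26 cells, 13 were lower and 28 were not called. Over all 10956 genes tested, 31.4% were called, 16.3% higher and 15.1% lower. Groups did not overlap in 20 genes on the higher side and 21 on the lower side, against 35.5% and 35% of all genes. The median log2 fold change of the 53 was -0.01, with 0.00 over all genes. The count of lower genes depended on libraries: it was 8 without guide #2 and 7 without sgRosa26 replicate 2. These values share their sgRosa26 libraries with the sgSik3 comparison, so likeness between the knockouts is given only as values side by side.

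The pump had 4 higher and 1 lower call among 17 genes. Atp6v1e1 had 5942 and 6509 normalized reads in sgMef2c libraries, against 4837 and 4421 in sgRosa26 libraries (log2 fold change 0.43 ± 0.06, adjusted p = 0.0028, with 0.55 after Sik3 guides). Atp6v0c had 5874 and 6555 in sgMef2c libraries, against 4515 and 4939 in sgRosa26 libraries (0.39 ± 0.07, adjusted p = 0.0049, with 0.38 after Sik3 guides). Atp6ap2 had 6353 and 6881 in sgMef2c libraries, against 5256 and 5381 in sgRosa26 libraries (0.31 ± 0.05, adjusted p = 0.0037). In all 3 genes every sgMef2c library lay above both sgRosa26 libraries. Atp6v0d1 rose by 0.20 ± 0.05 (adjusted p = 0.017), a call lost without guide #2 (0.079) or sgRosa26 replicate 1 (0.096). Atp6v1h, a regulatory subunit, fell by 0.17 ± 0.04 on the log2 scale (adjusted p = 0.021), and its adjusted p was 0.07 without guide #1, 0.11 without sgRosa26 replicate 1 and 0.062 without replicate 2. The remaining 12 were not called, among them Atp6v0b at 0.11 ± 0.04, Atp6v0e at 0.10 ± 0.04 and Atp6v0a2 at -0.13 ± 0.05.

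The cathepsins of the rule again had 6 lower genes of 9, with 1 higher and a median log2 fold change of -0.30. Outside the rule, Ctso (-0.08 ± 0.09), Ctsg (0.03 ± 0.05) and Ctsw (0.54 ± 0.34) were not called. Ctsl had 761.9 and 674 normalized reads in sgMef2c libraries, against 1286 and 1329.9 in sgRosa26 libraries (-0.87 ± 0.07, adjusted p = 0.00052). Ctsc had 2118 and 1804 in sgMef2c libraries, against 3125 and 2895 in sgRosa26 libraries (-0.62 ± 0.08, adjusted p = 0.0019). Ctss had 554 and 474 in sgMef2c libraries, against 862 and 760.1 in sgRosa26 libraries (-0.66 ± 0.10, adjusted p = 0.0034). None of these groups overlapped. Ctsz fell by 0.24 ± 0.04 and Ctsa by 0.30 ± 0.06 on the log2 scale. Ctsb stood at -0.35 ± 0.10 (adjusted p = 0.035), and at -0.18 (adjusted p = 0.077) without sgRosa26 replicate 2 and -0.31 (adjusted p = 0.11) without guide #2. Ctsh was higher, with 1639 and 1891 in sgMef2c libraries, against 1122 and 934 in sgRosa26 libraries (0.78 ± 0.10, adjusted p = 0.0019). Ctsd had 16415 and 16168 in sgMef2c libraries, against 16428 and 21251 in sgRosa26 libraries, and was not called (-0.20 ± 0.11). Without sgRosa26 replicate 1, in a fit with a lone control library, Ctsd was at -0.38.

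Hydrolases other than cathepsins split evenly, with 3 higher and 3 lower of 13. Neu1 had 3955 and 4233 normalized reads in sgMef2c libraries, against 2707 and 2943 in sgRosa26 libraries (log2 fold change 0.54 ± 0.06, adjusted p = 0.00092). Man2b1 had 12837 and 14044 in sgMef2c libraries, against 9071 and 10064 in sgRosa26 libraries (0.49 ± 0.06, adjusted p = 0.0020). Smpd1 rose by 0.32 ± 0.08 (adjusted p = 0.020, and 0.11 without guide #2 or 0.089 without sgRosa26 replicate 1). Gla, the galactosidase whose promoter is printed above, had 1519 and 1414 in sgMef2c libraries, against 1751 and 1829.7 in sgRosa26 libraries (-0.29 ± 0.05, adjusted p = 0.0081). Lipa stood at -0.32 ± 0.08 (adjusted p = 0.021), with 0.086 without guide #2 and 0.091 without sgRosa26 replicate 2. Lgmn had 206 and 116 in sgMef2c libraries, against 302 and 269.8 in sgRosa26 libraries (-0.88 ± 0.24, adjusted p = 0.032). Its guides differed widely: without guide #2 its value was -0.47 (adjusted p = 0.057), and its adjusted p was 0.11 without sgRosa26 replicate 1 and 0.069 without replicate 2.

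Of the membrane and transport genes, 3 rose and 2 fell after Mef2c guides. Cd63 had 11707 and 13047 normalized reads in sgMef2c libraries, against 8117 and 8713 in sgRosa26 libraries (log2 fold change 0.56 ± 0.06, adjusted p = 0.0011). Npc2 and Lamp2 rose by 0.22 ± 0.04 and 0.18 ± 0.04, and the adjusted p of Lamp2 was 0.057 or 0.059 without a sgRosa26 library. Cd68 had 1653 and 1512 in sgMef2c libraries, against 2399 and 2472 in sgRosa26 libraries (-0.62 ± 0.05, adjusted p = 0.00061). Grn, the progranulin gene, fell by 0.18 ± 0.05 (adjusted p = 0.035, and 0.13 without guide #2 or 0.18 without sgRosa26 replicate 2). Lamp1 was not called (0.06 ± 0.04). Lyz2 had 60388 and 69235 in sgMef2c libraries, against 49400.4 and 46440.0 in sgRosa26 libraries (0.43 ± 0.07, adjusted p = 0.0050). Lyz1 had 16.1 and 33.4 in sgMef2c libraries, against 15.8 and 16.7 in sgRosa26 libraries, so the groups overlapped and it was not called. Tfe3 fell by 0.20 ± 0.06 (adjusted p = 0.037), a call that each omission of a library took past 0.05, and Tfeb was not called (0.04 ± 0.11).

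The knockouts were then tested against each other on the recovered reads of all 6 RN2c libraries. Of the 53 genes, 10 were lower in sgMef2c than in sgSik3 cells and none was called higher, whereas 9.44% of 10952 genes were called, 5.74% lower and 3.7% higher. Lyz2 was at 2779.5 and 3171.5 RPM, scaled with TMM, in sgMef2c libraries, against 4923 and 4746 in sgSik3 libraries (log2 difference -0.71 ± 0.06, adjusted p = 0.00025). Lyz1 was at 0.742 and 1.53 in sgMef2c libraries, against 4.97 and 4.27 in sgSik3 libraries (-2.07 ± 0.27, adjusted p = 0.0026). Ctsl was at 35.1 and 30.9 in sgMef2c libraries, against 45.9 and 44.0 in sgSik3 libraries (-0.45 ± 0.07, adjusted p = 0.0044), and Ctsc at 97.5 and 82.6, against 110.0 and 111 (-0.30 ± 0.07, adjusted p = 0.029). Gla was at 69.9 and 64.8 in sgMef2c libraries, against 84.7 and 79.2 in sgSik3 libraries (-0.29 ± 0.05, adjusted p = 0.013).

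The other 5 were Ppt1 at -0.21 ± 0.05, Grn at -0.19 ± 0.05, Asah1 at -0.17 ± 0.05, Lamp2 at -0.15 ± 0.04 and Npc2 at -0.15 ± 0.04. Lamp2 and Npc2 were higher than sgRosa26 in both knockouts, and by more in sgSik3 cells. Among 17 pump genes the direct test made 0 calls, with differences from -0.16 to 0.02, so the larger number of pump calls after Sik3 guides is not shown to be a difference between the knockouts. Ctsh (-0.21 ± 0.08) and Lipa (0.27 ± 0.08) were not called either. With 1 sgSik3 library left out, calls over all genes fell to 51 without guide e1 and 50 without guide e3, and 1 gene of the 53 was called in each. The differences stayed near their values: without guide e1 and without guide e3, Lyz1 stood at -1.95 and -2.17, Ctsl at -0.42 and -0.48, and Gla at -0.24 and -0.33. Without Mef2c guide #2, 4 genes were lower and 1 higher, and Ctsc stood at -0.19 (adjusted p = 0.073).

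**Figure D3:**
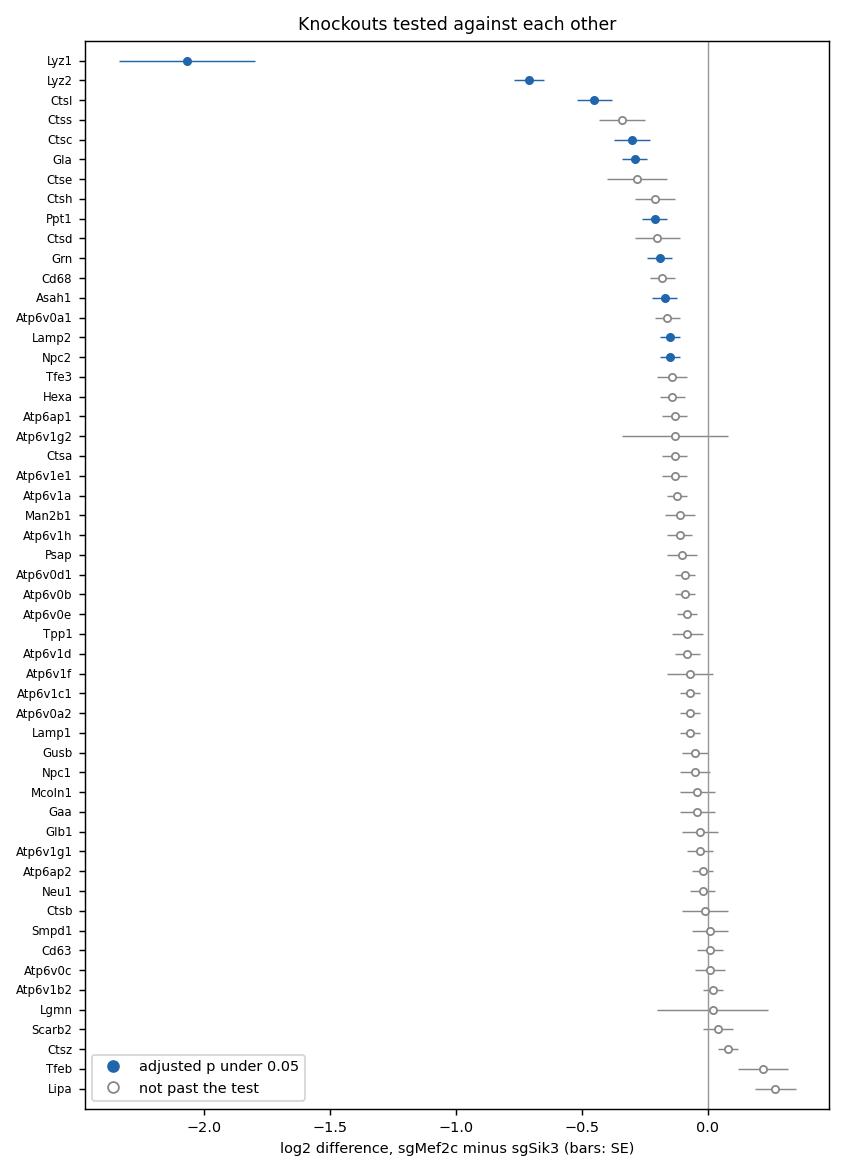
Log2 difference of each lysosomal gene, sgMef2c minus sgSik3, from the joint edgeR fit, with standard errors as bars and genes ordered by their difference; filled points passed the test. The 10 filled points all lie left of 0, with Lyz1 at -2.07 and Lyz2 at -0.71 furthest out.

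Lists of related genes give the setting of these changes, with the same shared controls. Over all genes, 23.9% were called higher and 23.9% lower after Sik3 guides, and 16.3% higher and 15.1% lower after Mef2c guides. Of 40 further measured lysosomal genes, 20 rose and 2 fell after Sik3 guides and 9 rose and 2 fell after Mef2c guides. Arsb, a sulfatase, stood at 1.03 ± 0.04 and 1.26 ± 0.08, and Galc, which acts on glycolipids, at 0.83 after Sik3 guides and 0.85 after Mef2c guides. Tcirg1, the pump's a3 subunit, which carries another symbol and so lies outside the rule, rose by 0.37 ± 0.04 after Sik3 guides. Of 21 sorting and mTORC1 docking genes, 8 rose and 5 fell after Sik3 guides and 8 rose and 3 fell after Mef2c guides, with Sort1 at 0.52 and 0.37, and the lower calls of that list stood near the share over all genes. Of 7 cystatin and stefin genes, which encode inhibitors of cysteine cathepsins, 6 rose after Sik3 guides, and 5 rose and 1 fell after Mef2c guides. Stfa3 had 9882 and 9822 normalized reads in sgSik3 libraries, against 5006 and 4776 in sgRosa26 libraries.

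Markers of myeloid lineages changed in both knockouts. Of 20 granulocyte maturation genes, 19 rose and none fell after Sik3 guides, and 17 rose and 1 fell after Mef2c guides. Of 13 monocyte and macrophage genes, 5 rose and 5 fell after Sik3 guides and 3 rose and 7 fell after Mef2c guides. Lyz2 and Cd68 are counted in that list too. Of the 5 that fell after Sik3 guides, Cx3cr1, a monocyte chemokine receptor, had 136 and 134 normalized reads in sgSik3 libraries, against 625 and 602 in sgRosa26 libraries. Of the 5 that rose, Fcgr3 stood at 0.77 ± 0.04 and Adgre1 at 0.36 ± 0.05. The granulocyte list summed to between 231995 and 247090.3 normalized reads in sgSik3 libraries, against 118426 to 127262 in sgRosa26 libraries. The Mef2c guides stood apart, with sums of 264251 for guide #1 and 367239 for guide #2, against 124485 to 133426 in sgRosa26 libraries. S100a9, a calprotectin gene of neutrophils, had 36879 and 76001 normalized reads in sgMef2c libraries, against 8294 and 9358 in sgRosa26 libraries. Markers of other cells changed as well. Nkg7, of cytotoxic lymphocytes and the only lymphoid marker abundant enough to test, rose by 1.43 ± 0.14 after Sik3 guides and 1.67 ± 0.13 after Mef2c guides. Cpa3, a mast cell protease, had 323 and 349 in sgSik3 libraries, against 614 and 1548 in sgRosa26 libraries (-1.53 ± 0.32), and stood at -2.22 ± 0.43 after Mef2c guides. Itga2b of megakaryocytes and Pdgfrb of stroma rose by 0.50 ± 0.16 and 0.30 ± 0.06 after Sik3 guides, and Pecam1 was not called (0.03 ± 0.03). Pecam1, listed for endothelium, fell by 0.22 ± 0.04 after Mef2c guides, and Pdgfrb was not called (-0.06 ± 0.06). With 7179 and 7321 normalized reads in sgRosa26 libraries of the sgMef2c table, Pecam1 was abundant in these leukemia libraries. Of the erythroid, megakaryocyte and mast cell list, Mcpt8 was not called after Sik3 guides (0.15 ± 0.12). After Mef2c guides, Mcpt8 (-0.12 ± 0.13), Itga2b (0.12 ± 0.17) and Klf1 (0.59 ± 0.41) were not called. In bulk libraries, fewer cells of a type and less RNA per cell cannot be told apart, and the part of these markers in the lysosomal changes was not tested.

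No lysosomal gene passed the limma test, fitted without a replicate term, after 2 hours of inhibitor. In RN2 cells, where 52 of the 61 genes were measured, limma called 0 of them, against 34 of 10732 genes (0.317%). At an unadjusted p under 0.05 there were 3, Atp6v1b2, Psap and Scarb2, with 2 by edgeR and none by DESeq2, and the smallest adjusted p was 0.54. Log2 fold changes of the 52 ran from -0.15 to 0.26, and the median was 0.01. Groups did not overlap in 2 genes on the higher side and 9 on the lower side, against 18.1% and 18.7% of all genes. Lyz2 had 9869 and 11253 normalized reads in YKL-05-099 libraries, against 9383 and 10293 in DMSO libraries, so the groups overlapped (0.10 ± 0.06). Atp6v1b2 had 3711 and 3703 in YKL-05-099 libraries, against 4184 and 3897 in DMSO libraries (-0.12 ± 0.04). Psap had 5766 and 5859 in YKL-05-099 libraries, against 5515 and 5443 in DMSO libraries (0.09 ± 0.04). Scarb2, the receptor that carries glucocerebrosidase to lysosomes, had 515 and 581 in YKL-05-099 libraries, against 401 and 517 in DMSO libraries (0.26 ± 0.12). Genes called higher after Sik3 guides had small log2 fold changes here, with Ctsh at -0.04, Cd63 at -0.03, Man2b1 at 0.02 and Neu1 at -0.03. Without DMSO replicate 2, Scarb2, Lyz2 and Atp6v1b2 were called (0.45, 0.17 and -0.17), and without DMSO replicate 1, Cd68 was (-0.30).

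In MOLM-13 cells 51 of the 59 genes were tested, and limma called 0 of them and 0 of all 11361 genes (0%). At an unadjusted p under 0.05 there were 144 genes (1.27%), and 0 of the 51 were among them. That share lies under the nominal 0.05, so the fit was conservative here and could miss small changes. By edgeR and DESeq2 the calls over all genes were 0 and 7, with 0 of the 51 in both. Log2 fold changes ran from -0.33 to 0.60, the extremes being ATP6V1E2 and ATP6V0E2, both with few reads, and the median was 0.01. Groups did not overlap in 9 genes on the higher side and 3 on the lower side, against 10.7% and 10.5% of all genes. CTSB had 6679.6 and 7058 normalized reads in YKL-05-099 libraries, against 6083 and 6409 in DMSO libraries (0.14 ± 0.09). CTSD had 4156 and 4209 in YKL-05-099 libraries, against 4347 and 3995 in DMSO libraries (0.01 ± 0.09). LIPA had 2177 and 2063 in YKL-05-099 libraries, against 1998 and 1956 in DMSO libraries (0.10 ± 0.09). NEU1 was listed at 0 in all 4 libraries and ATP6V1G2 at or near 0, and other genes of the major histocompatibility region (ABCF1, CSNK2B, FLOT1 and PSMB9) were also at 0, so NEU1 and ATP6V1G2 were not used. The libraries of a group spread more here than in the other tables, with chi-square per degree of freedom of 13.7 in YKL-05-099 and 14.4 in DMSO libraries, against 1.71 to 8.64 in the mouse groups.

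**Figure D4:**
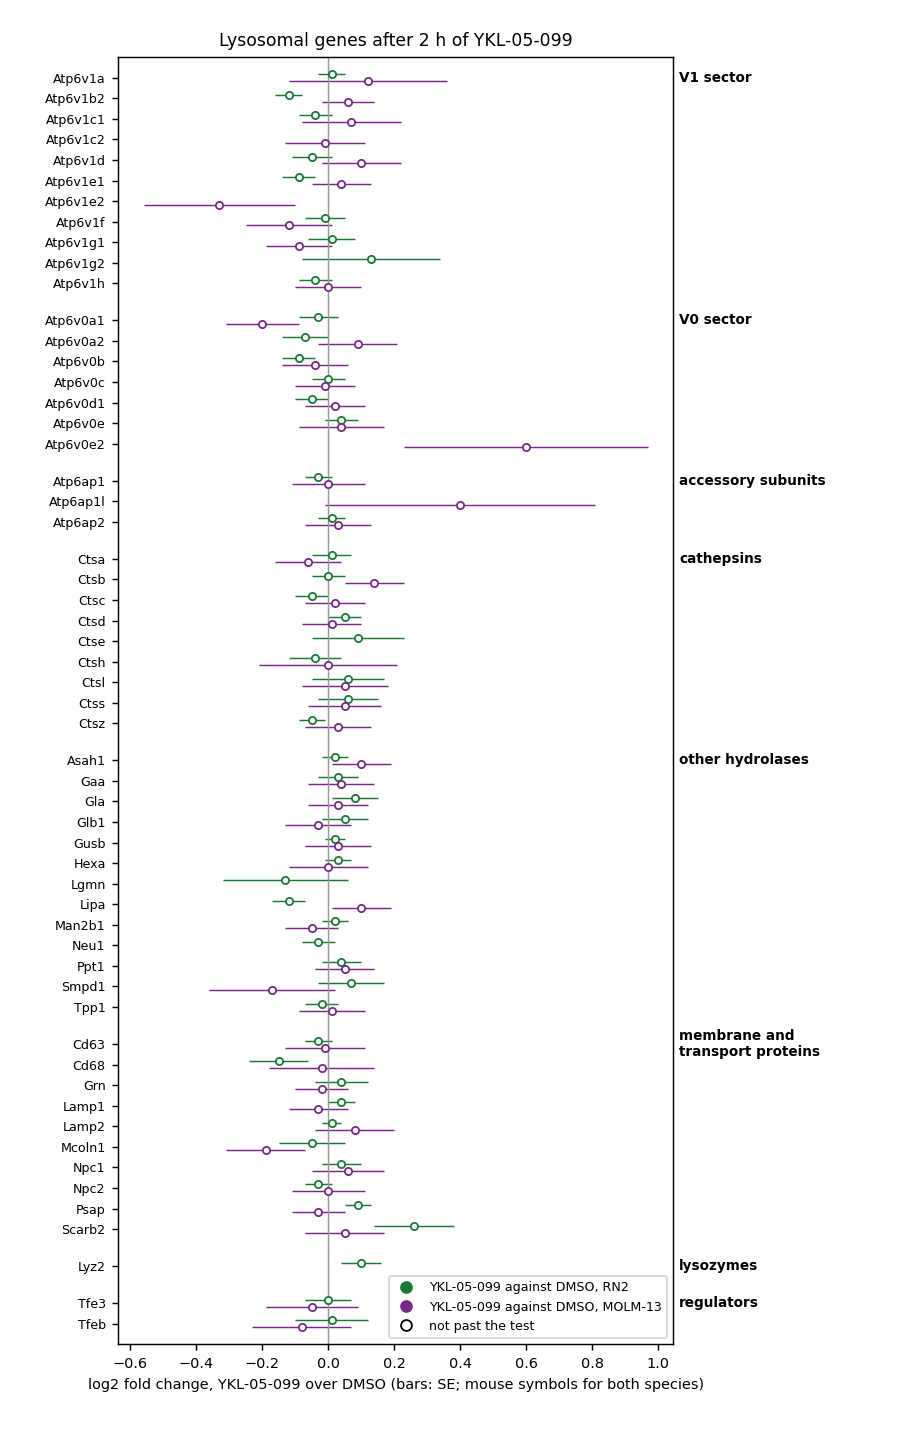
Log2 fold change of each measured lysosomal gene after 2 hours of YKL-05-099 over DMSO, in RN2 (350 nM, green) and MOLM-13 (250 nM, purple), with standard errors as bars and mouse symbols for both species. No point is filled, and the widest bars belong to genes with few reads such as ATP6V0E2 at 0.60.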

How the data were processed

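PolyA RNA libraries were made with TruSeq v2, a kit that does not mark strand, per the labels' protocols. The submitters' processing notes name HISAT2, featureCounts and DESeq2 with the builds hg19 and mm10, without versions. As a linear signal, the authors deposited 4 tables, each value being a read count divided by its library's size factor. Dividing by the worth of 1 read gave whole reads for 100% of values (tolerance 1e-06).

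The genes and the lists of related genes were chosen with earlier results of these data known. Within a table, genes averaging 10 or more entered a two-sided limma test (version 3.58.1, trended empirical Bayes) of log2(value + 1). P-values were adjusted by Benjamini-Hochberg over all genes tested, and calls were made below 0.05. Log2 fold changes keep that scale, which understates changes of low genes, with standard errors (SE). For sgMef2c against sgSik3, edgeR 4.0.16 (quasi-likelihood, TMM) was fitted to recovered reads, with an SE derived from its F statistic. R was 4.3.3. Alternatives were other pseudocounts and filters, no trend, TMM, quantile normalization, edgeR, DESeq2 1.42.0, a replicate block and leaving out each library; a lone library is then assumed to vary like the other group. The fits were tested on simulated data. Gene positions and exon lengths come from GENCODE vM21 and promoters from RefSeq.

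Named were genes past the test by at least 1.5-fold with groups that did not overlap, up to 4 of lowest p in each role, Tfeb, Tfe3, Lamp1, Ctsd, Cd68, Lyz1 and Lyz2, and those past the direct test. Genes named beyond this, such as Atp6v1a in the pump and the small or uncalled members, were chosen after their values were seen. No pair of libraries in a group agreed within sampling noise (chi-square per degree of freedom 1.71 to 14.4), and each library was counted once. Spread above that noise can be technical and does not show that libraries are separate cultures.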

Additional observations from a re-analysis of the deposited data

Results flagged for a closer look

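In 2 genes the RN2 and MOLM-13 libraries moved apart in opposite directions after YKL-05-099, with groups that did not overlap in either line, and neither change passed the test. Atp6v1b2, the B subunit of the pump, had a log2 fold change of -0.12 ± 0.04 in RN2, and ATP6V1B2 had 0.06 in MOLM-13. Lipa, the acid lipase, had -0.12 ± 0.05 in RN2, and LIPA had 0.10 in MOLM-13. The difference between the lines was not tested, and doses differed (350 nM in RN2 and 250 nM in MOLM-13). Groups did not overlap on the lower side in 18.7% of all genes in RN2, and on the higher side in 10.7% in MOLM-13. The share of all genes with opposite moves in both lines was not counted, so the number of such genes is not read as a result.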

How the results depend on the processing

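Other pseudocounts, TMM and edgeR left the counts of called lysosomal genes in the knockouts within 1 of the values given. Without the mean-variance trend, lower calls after Sik3 guides were 6, with Atp6v1b2, Ctsa, Ctsb and Ctss lost. Higher calls lost there were Asah1, Atp6v0e, Atp6v1c1, Ctse, Lamp1, Ppt1 and Psap. After Mef2c guides that setting gave 6 higher, 4 lower and 1628 calls over all genes, and DESeq2 gave 2255. Without trend the higher calls lost after Mef2c guides were Atp6ap2, Atp6v0c, Atp6v0d1, Lamp2, Lyz2 and Npc2. The lower calls lost were Atp6v1h, Ctsa, Ctsb, Ctsz, Gla, Grn, Lgmn, Lipa and Tfe3. In RN2, all-gene calls were 3 without a filter, 0 without trend and 16 with quantile normalization. In MOLM-13 DESeq2 made 7 calls. In the direct test 1 gene was higher without a filter, with DESeq2 or with only the 4 knockout libraries, and DESeq2 made 598 calls in all. Leaving out a library gave 15 to 27 higher, 6 to 13 lower and 3585 to 5458 calls in all after Sik3 guides. After Mef2c guides it gave 9 to 12, 7 to 12 and 1818 to 3140. In RN2 it gave 0 to 2, 0 to 1 and 26 to 318, in MOLM-13 0, 0 and 14 to 20, and in the direct test 0 to 1, 1 to 13 and 50 to 1152. Ctsd after Sik3 guides changed sign, to 0.18, without sgRosa26 replicate 2. The cause of these shifts was not tested. The labels do not say that same-numbered libraries belong together, and 2 pairs a table do not settle it: their deviations correlated at 0.051 for sgMef2c, 0.216 for RN2 and 0.525 for MOLM-13. With a replicate block, sgMef2c had 13 higher and 15 lower genes and 3905 calls, Ctsd among them at -0.20 (adjusted p = 0.046). RN2 then had 2 higher (Lyz2 at 0.10, adjusted p = 0.0028, and Scarb2 at 0.26, 0.0097), 1 lower (Atp6v1b2 at -0.12, 0.0091) and 499 calls. MOLM-13 then had 290 calls with 0 lysosomal genes, whose smallest adjusted p was 0.057. In that MOLM-13 fit 7 of the 51 had an unadjusted p under 0.05, against 11.66% of all genes. After Sik3 guides, Asah1, Ctse, Lamp1 and Ppt1 missed the threshold without a filter, without trend, with quantile normalization and with DESeq2, and their values moved by at most 0.02 except for Lamp1 (0.05 with quantile normalization). DESeq2 also left out Atp6v1b2, Atp6v1d, Ctsb and Smpd1. After Mef2c guides, DESeq2 left out Atp6v1h, Ctsb, Smpd1 and Tfe3. With 2 libraries a group, a fit that leaves one out rests on a lone library.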
